A study of Homo sapiens with 2 samples.

Results

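The genes described here are the expressed solute carriers outside the mitochondrial SLC25A family in H9 cells. They were chosen from the count table by name, taking every symbol that starts with SLC, a family number, the letter A and a member number, leaving out the mitochondrial SLC25A family, and by level, asking for at least 100 counts summed over both libraries. Of 292 such symbols among the 19220 in the table, 137 reached that minimum, 73 had fewer counts and 82 had 0 counts in both libraries. The 4 names just inside the minimum were SLC6A16 with 104 counts, SLC22A20 with 108, SLC14A2 with 114 and SLC28A3 with 118, and the 4 just outside were SLC45A3 with 84, SLC44A5 with 80, SLC12A7 with 76 and SLC13A5 with 68. The rule also takes 5 names that hold no carrier, namely the scaffold genes SLC9A3R1 and SLC9A3R2, the transcription factor gene SLC2A4RG, the adaptor gene SLC4A1AP and SLC7A6OS, a gene on the strand opposite SLC7A6. That leaves 132 carriers by name. For 1 of them, SLC22A20, the annotation used here gives no coding sequence.

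H9 cells are an established line from a human T cell lymphoma, and both libraries are wild type by label. The untreated group is 1 library of cells with doxorubicin for 0 h, and the treated group is 1 library of cells kept with 0.05 µM doxorubicin for 6 h. Doxorubicin is an anthracycline used against lymphomas, and it poisons topoisomerase II. The comparison asks which genes differ between exposed and unexposed cells, and with 1 library per group it has no test, no p-value and no replicate error.

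Solute carriers are membrane proteins that move small molecules either down their gradient or coupled to sodium, protons or a counter-substrate. Proliferating T cells are known for high uptake of glutamine, leucine and glucose and for lactate export, and lymphoma cells take up nucleosides and nucleoside drugs through the same equilibrative carriers. Zinc is in general moved out of the cytosol by the SLC30 family and into it by the SLC39 family.

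The 2 libraries held 33730703 counts untreated and 50174434 treated, and counts were scaled to CPM on the edgeR TMM library size. T cell genes were present, with ZAP70 at 312 CPM and CD3E at 217 CPM untreated, although CD2 had 0 counts untreated and 2 treated and CD7 had 8 in each. Summed over the 12 T cell markers the level was 1305 CPM untreated and 1403 CPM treated, and CD3G, IL2RA and CCR4 were higher by the rule given below. CD3D, at 216 and 145 CPM, and CD3E, at 217 and 173 CPM, lay on the lower side without a call. Their part in the results was not tested. Of the pluripotency markers, checked because a stem cell line is also called H9, NANOG and DPPA4 had 0 counts in both libraries. The summed level of the 5 was 3.25 CPM untreated and 2.18 treated, nearly all from POU5F1 with 105 and 110 counts. The 5 B cell markers summed to 206 and 150 CPM, mostly from CD79A, with PAX5 at 0 counts in both libraries. The 5 epithelial markers summed to 82.2 and 67.5 CPM, mostly from EPCAM, with KRT19 at 0 in both, and the 5 myeloid and 3 erythroid markers stayed below 3 CPM in sum in both libraries. In bulk RNA, fewer cells of a type and less RNA per cell cannot be told apart.

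A gene is called higher or lower below when its treated over untreated ratio of scaled counts was at least 1.5-fold and its exact 95% Clopper-Pearson counting interval excluded a ratio of 1. Intervals are given in parentheses and cover counting error only. Over the 11244 genes with at least 100 counts, 7.26% were called higher and 9.57% lower, and the median log2 ratio was 0.007 (quartiles -0.28 and 0.27). Of the 137 members, 21 were called higher (15.3%), 5 lower (3.65%) and 111 neither. All 21 higher members and 3 of the 5 lower ones are carriers by name, with SLC22A20, which has no annotated coding sequence, among the higher ones. The members' median log2 ratio was 0.22 (quartiles -0.08 and 0.47), with 99 members above 0 and 38 below. With counts scaled by library totals in place of TMM, 29 members were called higher and 4 lower. Over all measured genes the higher share of the calls went from 43.1% to 56.0% under that scaling. The members took 0.754% of the untreated counts and 0.975% of the treated counts.

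Transcript length went with the ratio in these libraries. Spearman's rho between transcript length and log2 ratio was 0.55 over 11149 measured genes and 0.30 over the 136 members with a length, and genes share libraries and are not independent. Values are therefore also given beside those of genes of like length, in 5 bins. Among genes of 1875 to 2736 bases the median log2 ratio was -0.12 over all 2230 genes and 0.10 over the 31 members. In the longest bin, from 5523 bases upward, it was 0.28 over all 2230 genes and 0.42 over the 29 members. With both lengths and GC content fitted by regression splines over all genes, the adjusted median of the members was 0.14 against -0.003 for all genes. In that adjusted comparison 9 of the 135 members with a value were called higher and 5 lower, where 4.29% of all genes were called higher and 3.45% lower. The members' lower share was then close to that of all genes, and their higher share lay nearer to it than before adjustment. Adjusted log2 ratios are given below where a call depends on them.

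**Figure D1:**
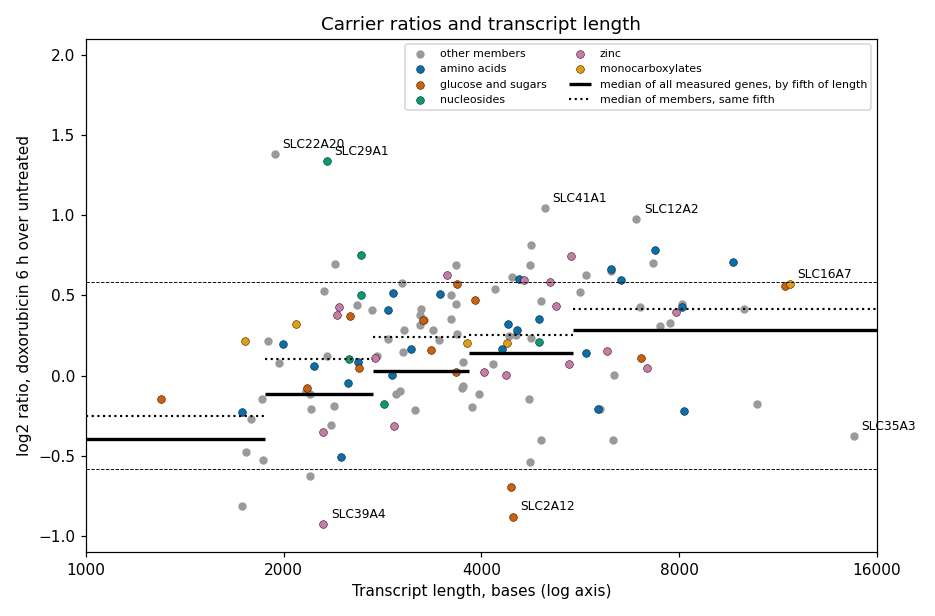
Log2 ratio of treated over untreated (vertical axis) against transcript length in bases (log axis) for the 136 members with a length; each point is 1 gene, coloured by substrate class. Solid bars are medians of all measured genes in each of 5 length bins, dotted bars those of the members in the same bin, and dashed lines mark 1.5-fold. The solid bars climb from -0.40 to 0.28 with length, and in each bin the dotted bar lies above the solid one.

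A few amino acid carriers had the highest levels of the family. Levels between genes are compared as CPM per kilobase of transcript. SLC7A5, the LAT1 exchanger that imports leucine and other large neutral amino acids, stood first with 245 CPM per kilobase untreated and 298 treated. Its partner SLC3A2, the CD98 heavy chain that carries LAT1 to the surface, was at 180 and 188, and the glutamine carrier SLC1A5 (ASCT2) at 172 and 228. These 3 carriers held higher levels per kilobase than every other carrier in both libraries. The scaffold gene SLC9A3R1, at 205 and 216, was the one other member in their range. Of the members' summed level per kilobase untreated, SLC7A5 held 11.1%, SLC3A2 8.21% and SLC1A5 7.81%. At the other end, 84 of the 136 members with a length lay under 10 CPM per kilobase in both libraries. Outside the amino acid carriers the highest levels untreated were those of the reduced folate carrier SLC19A1 at 55.8 CPM per kilobase and the lactate carrier SLC16A1 at 49.7.

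**Figure D2:**
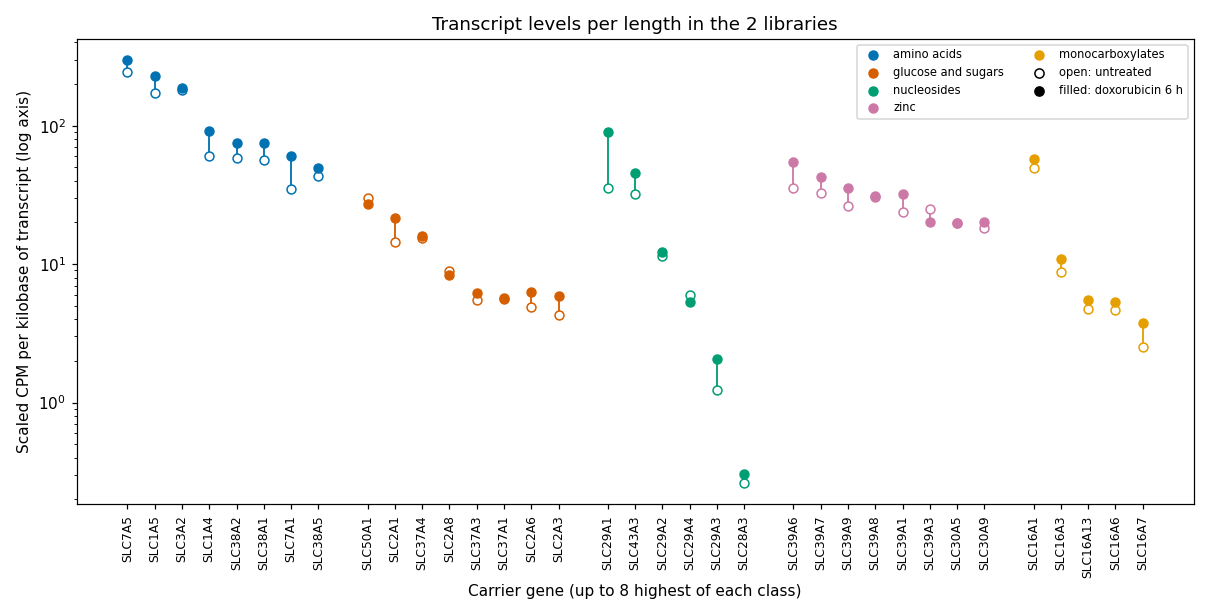
Scaled CPM per kilobase of transcript (log axis) of up to 8 carriers of each of 5 substrate classes, ordered by level; open circles are the untreated library and filled circles the treated library, 1 library each. Amino acid carriers reach 298, and the longest vertical gap is that of SLC29A1, from 35.4 to 89.4.

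Of 24 measured amino acid carriers, 5 were called higher (20.8%), 0 lower and 19 neither, and their median log2 ratio was 0.24. Over all measured genes 7.26% were called higher and 9.57% lower. The highest was SLC7A1, the CAT1 carrier of arginine and lysine, with 8504 counts untreated and 22834 treated. That is 258 and 445 CPM, a ratio of 1.72 (1.68 to 1.77). SLC7A11, the cystine and glutamate exchanger that feeds glutathione synthesis, had 515 and 1312 counts, or 15.6 and 25.5 CPM, and was 1.63-fold higher (1.47 to 1.81). SLC7A6, another light chain that pairs with SLC3A2, had 1025 and 2537 counts and was 1.59-fold higher (1.48 to 1.71), but 48.9% of its exons are overlapped by other genes, among them its neighbour SLC7A6OS. SLC1A4 (ASCT1), which carries alanine, serine and cysteine, went from 9082 to 21463 counts, 1.52-fold higher (1.48 to 1.55). SLC6A6, the taurine carrier, had 2263 and 5340 counts and was 1.51-fold higher (1.44 to 1.59). SLC1A4 and SLC6A6 lay only just past 1.5-fold. After adjustment for length and GC content SLC7A11 kept its call at a log2 ratio of 0.62, while SLC7A1 was at 0.40, SLC7A6 at 0.38, SLC1A4 at 0.35 and SLC6A6 at 0.23, below the size limit. Adjusted for length alone, SLC7A11 was at 0.37 and none of the 5 kept the call. With length and GC content fitted, 1 of the 24 was called higher, where 4.29% of all genes were. The class median was then 0.12.

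The abundant members of the class had smaller ratios. SLC1A5 had 16303 and 33767 counts and a log2 ratio of 0.41 (0.38 to 0.44). SLC7A5 had 36585 and 69524 counts and a log2 ratio of 0.29 (0.27 to 0.30). The glutamine carriers of the sodium-coupled SLC38 family, SLC38A1 and SLC38A2, were at log2 ratios of 0.43 (0.40 to 0.46) and 0.35 (0.32 to 0.39). All 4 counting intervals lie above 0, as they did for 4285 of the 11244 measured genes, and none of the 4 reaches 1.5-fold. The heavy chain SLC3A2 was nearly level, with 13212 and 21451 counts and a ratio of 1.04 (1.02 to 1.06). Its light chains among the members therefore spread widely around it, from SLC7A11 at a log2 ratio of 0.71 to SLC7A7, an exporter of cationic amino acids, at -0.51 (-0.95 to -0.07) from 84 and 92 counts. The 7 SLC38 genes had a median of 0.19 with 0 calls. The lysosomal arginine sensor SLC38A9 was at 0.001 (-0.09 to 0.10).

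Genes of amino acid sensing and the amino acid response, from a list of 17 of which 15 were measured, had 1 member called higher and 0 lower, at a median of 0.008, or -0.02 after adjustment. That member was MTOR, the nutrient-sensing kinase, at a log2 ratio of 0.59 (0.53 to 0.65), and it was at 0.01 after adjustment. ATF4, the transcription factor of the response, was at -0.40 (-0.42 to -0.38), and its target ASNS, asparagine synthetase, at -0.26 (-0.28 to -0.23). SESN2, a sensor of leucine, was at 0.58 (0.53 to 0.63), just short of the limit.

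Among 13 measured carriers of glucose and other sugars 0 were called higher and 2 lower (15.4%), with a median log2 ratio of 0.11. Over all measured genes 7.26% were called higher and 9.57% lower. After adjustment for length and GC content 2 of the 13 were lower, where 3.45% of all genes were, and the class median was 0.07. SLC2A1 (GLUT1), the main glucose carrier of dividing lymphocytes, had 1736 counts untreated and 4030 treated, which is 52.7 and 78.5 CPM. Its ratio of 1.49 (1.41 to 1.58) fell just short of the limit. SLC2A3 (GLUT3) had 549 and 1186 counts and a log2 ratio of 0.47 (0.32 to 0.62). Of the 50-base stretches sampled along its transcript, 23.2% also occur in transcripts of other genes. The inositol carrier SLC5A3, with 1123 and 2580 counts, was at 1.47 (1.37 to 1.58). These 3 lay on the higher side without a call, and scaling by library totals moved SLC2A1 and SLC5A3 past the limit.

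The lower calls in the class were SLC2A12 and SLC5A10, both of low level. SLC2A12 (GLUT12), a facilitative hexose carrier, had 386 counts untreated and 327 treated, or 11.7 and 6.37 CPM, and was 1.84-fold lower (1.58 to 2.14). SLC5A10, a sodium-coupled carrier of mannose and fructose, had 171 and 165 counts, or 5.19 and 3.21 CPM, and was 1.62-fold lower, with a log2 ratio of -0.69 (-1.01 to -0.38). Exons of other genes overlap 38.9% of SLC2A12 and 41.2% of SLC5A10, and no source used here tells whether the counting used strand. After adjustment SLC2A12 was at a log2 ratio of -0.96 and SLC5A10 at -0.89, still past the limit. The sugar phosphate carriers SLC37A1, SLC37A3 and SLC37A4 lay between 0.02 and 0.16, and SLC37A4, which moves glucose 6-phosphate into the endoplasmic reticulum, had 1322 and 2133 counts, with 12.95% of its exons overlapped. SLC50A1, the highest of the class in CPM per kilobase, had 1285 and 1814 counts and was at -0.14 (-0.25 to -0.04), and its direction turned to 0.17 after adjustment. Of 9 genes of glucose use, among them the hexokinases HK1 and HK2 and the glucose carrier regulator TXNIP, 0 were called in either direction and the median was 0.11.

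Nucleoside carriers held the largest well-counted ratio. Of 6 measured members 2 were called higher and 0 lower, with a median of 0.36. Over all measured genes 7.26% were called higher and 9.57% lower. After adjustment for length and GC content 2 of the 6 were higher, where 4.29% of all genes were, and the class median was 0.28. SLC29A1 (ENT1), the equilibrative carrier that brings in adenosine, thymidine and drugs such as cytarabine and gemcitabine, had 2711 counts untreated and 10681 treated. Its level was 82.3 CPM untreated and 208 CPM treated, a ratio of 2.53 (2.42 to 2.64). Among the members with at least 200 counts this was the highest ratio, and per kilobase SLC29A1 moved from rank 11 to rank 6 of the members. Adjustment for length and GC content left it at a log2 ratio of 1.32 from 1.34. SLC29A3 (ENT3), its intracellular relative, had 106 and 279 counts and was 1.68-fold higher (1.35 to 2.13), with an adjusted log2 ratio of 0.72. SLC43A3, a carrier of purine nucleobases, had 2782 and 6158 counts and a ratio of 1.42 (1.36 to 1.49), but 47.6% of the stretches sampled along it occur in other genes too.

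The other nucleoside carriers lay nearer to equal levels. SLC29A2 (ENT2), the second equilibrative nucleoside carrier, had 942 and 1578 counts and a log2 ratio of 0.10 (-0.01 to 0.22). SLC29A4, which carries monoamines as well as adenosine, had 561 and 773 counts and was at -0.18 (-0.34 to -0.02). The concentrative carrier SLC28A3 had 42 and 76 counts, and its interval from -0.35 to 0.79 leaves a difference of that size not detectable at this depth. Of the enzymes that trap or process nucleosides after entry, 10 of 12 listed genes were measured, with 0 called higher and 1 lower at a median of -0.12, which was 0.05 after adjustment. The lower one was DGUOK, mitochondrial deoxyguanosine kinase, at -0.73 (-0.80 to -0.65) and at -0.43 after adjustment. DCK, the kinase of deoxycytidine and its drug analogues, was at -0.40 (-0.47 to -0.33), and TK1, cytosolic thymidine kinase, at -0.28 (-0.34 to -0.21). After adjustment DCK was at -0.14 and TK1 at 0.06, so the direction of TK1 turned.

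The sequence before the starts of SLC29A1 is printed because it is the member with the largest well-counted difference, beside that of SLC2A12, the sugar carrier with the lowest ratio. RefSeq promoters on GRCh38.p14, another assembly than the hg19 used for the counts, were found for 110 of the 137 members. Each line gives the 250 bases before the annotated start, 5′ to 3′ on the gene's strand, with every GGGCGG, the GC box, or its reverse complement in capitals.
SLC29A1 upstream start, chr6:44219365-44219614, strand plus: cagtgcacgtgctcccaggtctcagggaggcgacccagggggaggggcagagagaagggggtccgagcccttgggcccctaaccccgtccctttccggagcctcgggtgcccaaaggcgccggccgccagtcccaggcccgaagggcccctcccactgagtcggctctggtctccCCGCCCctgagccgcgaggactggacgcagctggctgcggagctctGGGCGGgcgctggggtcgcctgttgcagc
SLC29A1 downstream start, chr6:44223345-44223594, strand plus: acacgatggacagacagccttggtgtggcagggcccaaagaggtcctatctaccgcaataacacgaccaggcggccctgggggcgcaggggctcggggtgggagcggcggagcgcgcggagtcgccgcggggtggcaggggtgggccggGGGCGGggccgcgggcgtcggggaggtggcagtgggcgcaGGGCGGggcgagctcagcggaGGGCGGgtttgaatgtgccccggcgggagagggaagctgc
SLC2A12, chr6:134052625-134052874, strand minus: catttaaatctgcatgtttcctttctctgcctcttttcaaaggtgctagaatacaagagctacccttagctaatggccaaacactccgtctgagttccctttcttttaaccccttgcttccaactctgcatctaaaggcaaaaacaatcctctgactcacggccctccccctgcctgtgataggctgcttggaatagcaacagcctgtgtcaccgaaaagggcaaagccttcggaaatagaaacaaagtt
The upstream start of SLC29A1 had 2 GC boxes and the downstream start 3, while SLC2A12 had 0. The upstream window of SLC29A1 also held 1 E-box, CACGTG. Searched on both strands with overlapping matches counted, GGGCGG was found in 78.3% of the 23 such windows of members called higher and in 60.5% of the 172 windows of all matched members. In the 4 windows of members called lower the share was 25%. Only 18 of the 26 called members had a window, and SLC29A1 alone gave 2. GGGCGG was found in 63.9% of the 12940 promoters of measured genes and 42.6% of all 35116 in the table. CACGTG was found in 11.6% of the members' windows, 4.35% of those of members called higher, 8.47% of those of measured genes and 6.34% of all. The core of the amino acid response element, searched as TTGCATCA and TTTCATCA, was found in 0.581% of the members' windows, which is 1 window, in 0.904% of those of measured genes and in 1.70% of all. A match describes letters in this window and not a bound site.

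Of the zinc carriers 17 were measured, of which 3 were called higher (17.6%), 1 lower (5.88%) and 13 neither, at a median of 0.15. Over all measured genes 7.26% were called higher and 9.57% lower. After adjustment for length and GC content 1 of the 17 was higher and 1 lower, at a class median of 0.08. In that adjustment 4.29% of all genes were higher and 3.45% lower. SLC30A1, the zinc exporter of the plasma membrane, had 210 counts untreated and 549 treated, or 6.37 and 10.7 CPM, and was 1.67-fold higher (1.43 to 1.98). Its log2 ratio of 0.68 after adjustment for length and GC content kept the call, and that of 0.55 after adjustment for length alone did not. SLC39A6 (ZIP6), an importer of the plasma membrane, had 4110 and 9883 counts and was 1.54-fold higher (1.49 to 1.60). SLC39A14 (ZIP14), which also carries iron and manganese, had 915 and 2161 counts and was 1.51-fold higher, with a log2 ratio of 0.60 (0.49 to 0.71). After adjustment SLC39A6 was at 0.58, just under the limit, and SLC39A14 at 0.39.

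The lower call was SLC39A4 (ZIP4), known as the zinc importer of the gut. It had 818 counts untreated and 671 treated, or 24.8 and 13.1 CPM, and was 1.90-fold lower (1.71 to 2.11), the lowest ratio of all 137 members. The adjusted log2 ratio was -0.71, still past the limit. SLC39A13 and SLC39A3 were also on the lower side, at -0.35 (-0.48 to -0.23) and -0.32 (-0.39 to -0.24), without a call, and 10.5% of the exons of SLC39A3 are overlapped and 12.9% of its sampled stretches shared. Importers and exporters were grouped by family name alone, SLC39 and SLC30, and not by the membrane each carrier sits in. The 11 importers had a median of 0.11, ranging from -0.93 to 0.62, and the 6 exporters one of 0.27, ranging from 0.003 to 0.74. Exporter transcripts were longer, at a median of 5846 bases against 2940 for importers, and the order of the medians depended on the adjustment. With length alone fitted, importers were at 0.15 and exporters at 0.01. With coding length and GC content fitted too, importers were at 0.08 and exporters at 0.18. Whether importers and exporters differ was not tested. SLC39A6 and SLC39A10 (ZIP10) are close relatives, and SLC39A10, with 994 and 1626 counts, was at 0.07 (-0.05 to 0.18) and at -0.02 after adjustment. SLC39A9 had 4506 and 9489 counts at 0.43 (0.38 to 0.49), and SLC39A7, which releases zinc from the endoplasmic reticulum, had 2613 and 5289 counts at 0.38 (0.31 to 0.44). SLC39A1, with 1909 and 4000 counts, was at 0.43 (0.35 to 0.51), with 84.4% of its sampled stretches found in transcripts annotated to other genes. SLC30A5 and SLC30A6 act as a pair in the secretory pathway, and they were at 0.003 (-0.07 to 0.07) and 0.58 (0.49 to 0.67).

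Metallothioneins, small cysteine-rich proteins that bind zinc in the cytosol, were lower before adjustment. Of 7 listed genes of zinc handling 4 were measured, with 0 called higher and 3 lower. MT2A had 5332 counts untreated and 3855 treated and was 2.16-fold lower, MT1X with 441 and 349 counts was 1.97-fold lower, and MT1F with 165 and 123 counts was 2.09-fold lower. Their adjusted log2 ratios were -0.27, -0.16 and -0.27, none past the limit. MTF1, the zinc-sensing transcription factor that acts on metallothionein genes and SLC30A1, was at 0.52 (0.37 to 0.66) and at 0.16 after adjustment.

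The window before SLC30A1 is shown because this gene is a textbook target of MTF1. The core of the metal response element was searched on both strands as TGCACNC and TGCGCNC, and matches are in capitals.
SLC30A1, chr1:211579162-211579411, strand minus: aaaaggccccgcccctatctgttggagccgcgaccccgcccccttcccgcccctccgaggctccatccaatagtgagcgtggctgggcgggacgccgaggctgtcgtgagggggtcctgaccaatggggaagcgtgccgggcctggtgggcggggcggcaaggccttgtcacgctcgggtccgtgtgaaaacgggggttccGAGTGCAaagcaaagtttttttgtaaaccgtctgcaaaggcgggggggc
This window held 1 match, read on the opposite strand and starting 49 bases before the start, together with 6 GC boxes and 2 CCAAT boxes. The element's core was found in 38.1% of the 21 promoters of zinc carriers, in 26.1% of those of members called higher, in 32.2% of those of measured genes and in 24.8% of all. The downstream window of SLC29A1 printed above held 2 matches.

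Of the monocarboxylate carriers 5 were measured, and 0 were called in either direction, although all 5 lay above 0 with counting intervals that exclude a ratio of 1. Their median was 0.22, or 0.40 after adjustment for length and GC content and 0.19 after adjustment for length alone. Over all 11244 measured genes, 4285 had such an interval above a ratio of 1 and 4154 below it. SLC16A1 (MCT1), which moves lactate and pyruvate with a proton, had 7156 counts untreated and 12857 treated, or 217 and 250 CPM, a ratio of 1.15 (1.12 to 1.19). Its adjusted log2 ratio was 0.08. SLC16A3 (MCT4), known as the lactate exporter of glycolytic cells, had 598 and 1168 counts and a log2 ratio of 0.32 (0.18 to 0.47). SLC16A7 (MCT2) had 982 and 2273 counts and the highest ratio of the class, 1.48 (1.38 to 1.60). SLC16A13 and SLC16A6 were at 1.16 and 1.15. Scaling by library totals moved SLC16A7 past the limit. BSG, the chaperone that brings SLC16A1 and SLC16A3 to the surface, was at a log2 ratio of -0.39 (-0.42 to -0.37), the other chaperone EMB at 0.003, and lactate dehydrogenase LDHA at 0.14 (0.12 to 0.16). MPC1, a subunit of the mitochondrial pyruvate carrier, was the 1 of 7 listed genes called lower, at -0.88 (-0.94 to -0.83) and -0.29 after adjustment.

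**Figure D3:**
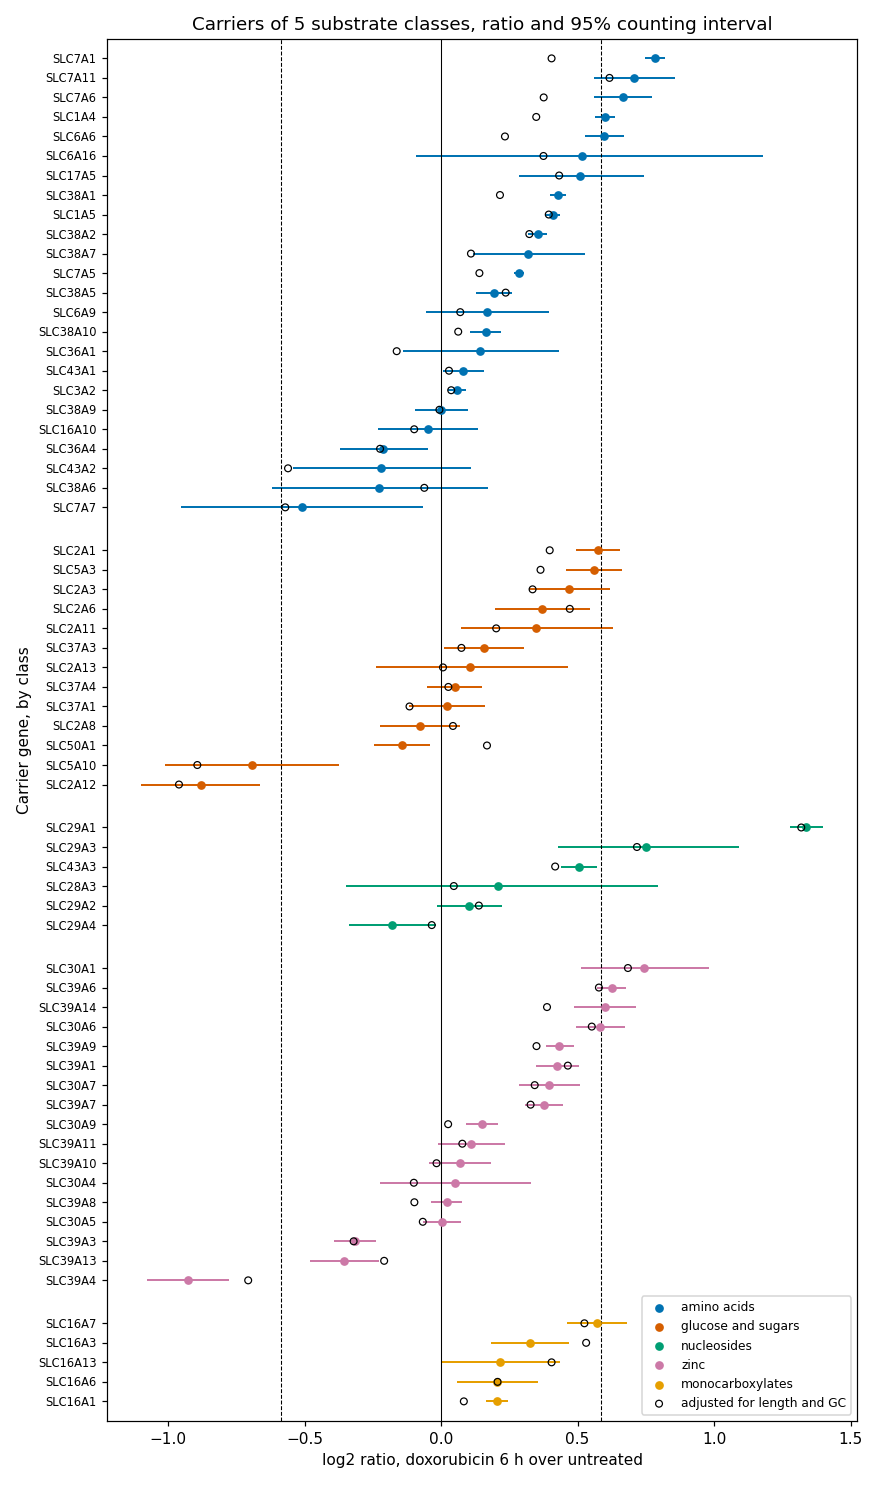
Log2 ratio of treated over untreated (horizontal axis) of the 65 carriers of 5 substrate classes, with the 95% counting interval as a bar; open circles are the ratios adjusted for length and GC content, and dashed lines mark 1.5-fold. SLC29A1 at 1.34 lies apart from the rest on the right, and SLC39A4 and SLC2A12 lie farthest left.

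The 67 carriers of other substrates had 11 called higher and 0 lower, at a median of 0.25. Of these, 4 of 10 carriers of protons, sodium, calcium and magnesium were called higher and 4 of 17 carriers of chloride, bicarbonate, phosphate and sulfate. Over all measured genes the share was 7.26%. After adjustment for length and GC content 2 of the 10 and 1 of the 17 were called higher, where 4.29% of all genes were. After adjustment for length alone these counts were 1 and 3. SLC41A1, a magnesium carrier, had 187 counts untreated and 603 treated, or 5.68 and 11.7 CPM, and was 2.06-fold higher (1.75 to 2.45). Its relative SLC41A2 had 74 and 177 counts and was 1.53-fold higher (1.16 to 2.04), while SLC41A3, with 2064 and 3508 counts, was at a log2 ratio of 0.12. SLC12A2, the sodium, potassium and chloride importer NKCC1, had 346 and 1063 counts, or 10.5 and 20.7 CPM, and was 1.97-fold higher (1.74 to 2.23). SLC41A1, SLC41A2 and SLC12A2 kept their calls after adjustment for length and GC content, at log2 ratios of 0.77, 0.66 and 0.71. Adjusted for length alone, SLC41A2 was at 0.49, below the limit.

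SLC31A1 (CTR1), the copper importer that is also discussed as a route for platinum drugs, had 861 and 2169 counts and was 1.62-fold higher (1.49 to 1.75), with an adjusted log2 ratio of 0.75. Adjusted for length alone, SLC31A1 was at 0.54, below the limit. SLC27A2, a long-chain fatty acid carrier and acyl-CoA synthetase, had 278 and 703 counts and was 1.62-fold higher (1.41 to 1.87), and exons of other genes cover 20.3% of it. Calls for SLC12A4, SLC20A2, SLC9A8 and SLC24A1 lay between 1.54-fold and 1.76-fold and were not kept after adjustment for length and GC content. After adjustment for length alone SLC12A4 and SLC20A2 kept theirs, at log2 ratios of 0.67 and 0.64. SLC22A20 had the highest ratio of the 137 members, 2.61 (1.64 to 4.51), but from 21 and 87 counts, so it reached the count minimum mainly through the treated library. The annotation gives it no coding sequence, so whether it makes a carrier protein cannot be told here. For the same reason it has no value adjusted for length and GC content. None of the 10 carriers of vitamins and choline was called, and the reduced folate carrier SLC19A1, the entry route of methotrexate, was at 0.21 (0.15 to 0.27). Among names that hold no carrier, SLC2A4RG, with 1223 and 1086 counts, was 1.76-fold lower (1.62 to 1.91) and SLC9A3R2, with 189 and 191 counts, 1.54-fold lower (1.26 to 1.90). Both lost the call after adjustment, at -0.39 and -0.28.

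The windows before SLC41A1 and SLC12A2, the next highest well-counted members after SLC29A1, are given with GC boxes in capitals.
SLC41A1, chr1:205813199-205813448, strand minus: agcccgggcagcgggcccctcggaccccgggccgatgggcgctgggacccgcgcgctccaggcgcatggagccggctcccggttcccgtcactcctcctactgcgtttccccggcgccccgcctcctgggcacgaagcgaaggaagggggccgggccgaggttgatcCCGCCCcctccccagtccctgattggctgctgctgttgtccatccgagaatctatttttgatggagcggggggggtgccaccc
SLC12A2, chr5:128083516-128083765, strand plus: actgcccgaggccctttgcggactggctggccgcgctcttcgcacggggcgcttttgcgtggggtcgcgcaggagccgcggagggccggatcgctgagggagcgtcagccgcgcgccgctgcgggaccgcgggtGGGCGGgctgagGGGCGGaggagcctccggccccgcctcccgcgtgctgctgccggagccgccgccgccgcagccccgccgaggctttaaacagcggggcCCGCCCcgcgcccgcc
SLC41A1 had 1 GC box and SLC12A2 had 3, against 2 and 3 before the starts of SLC29A1.

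**Figure D4:**
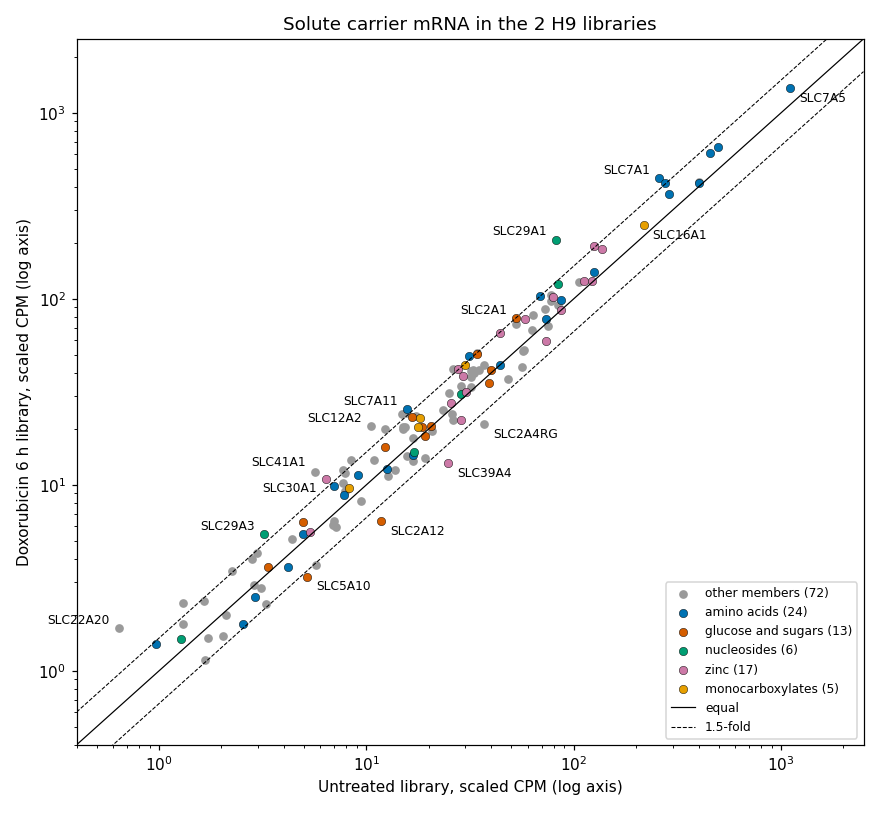
Scaled CPM of the 137 members in the treated library (vertical axis) against the untreated library (horizontal axis), both log axes; each point is 1 gene, the solid line marks equal levels and the dashed lines 1.5-fold. SLC29A1 lies above the upper dashed line at 82.3 and 208 CPM, and SLC39A4 below the lower one at 24.8 and 13.1.

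Of the 26 members called without adjustment, 12 kept their call and direction after adjustment for length and GC content. These were 9 higher, namely SLC29A1, SLC41A1, SLC31A1, SLC29A3, SLC12A2, SLC30A1, SLC41A2, SLC27A2 and SLC7A11, and 3 lower, namely SLC2A12, SLC5A10 and SLC39A4. A further 13 lost the call and 1 had no value. Only after adjustment did 2 members become lower calls, SLC4A5 at -0.78 and SLC14A2 at -0.85. SLC4A5 shares 57.1% of its sampled stretches with other transcripts, and SLC14A2 rests on 55 and 59 counts. With adjustment for length alone, SLC31A1, SLC30A1, SLC41A2 and SLC7A11 were at 0.54, 0.55, 0.49 and 0.37 and lost the call. SLC12A4 and SLC20A2 kept it there, at 0.67 and 0.64. The mitochondrial SLC25A carriers, which the rule leaves out, had 1 of 38 measured genes called higher and 1 lower, with a median of -0.02 unadjusted and 0.03 adjusted. The ABC transporters, another family of membrane transporters, had 3 of 21 measured genes called higher (14.3%) and 0 lower. Their median was 0.22 unadjusted, like that of the members, and 0.03 adjusted. The differences between the families were not tested.

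**Figure D5:**
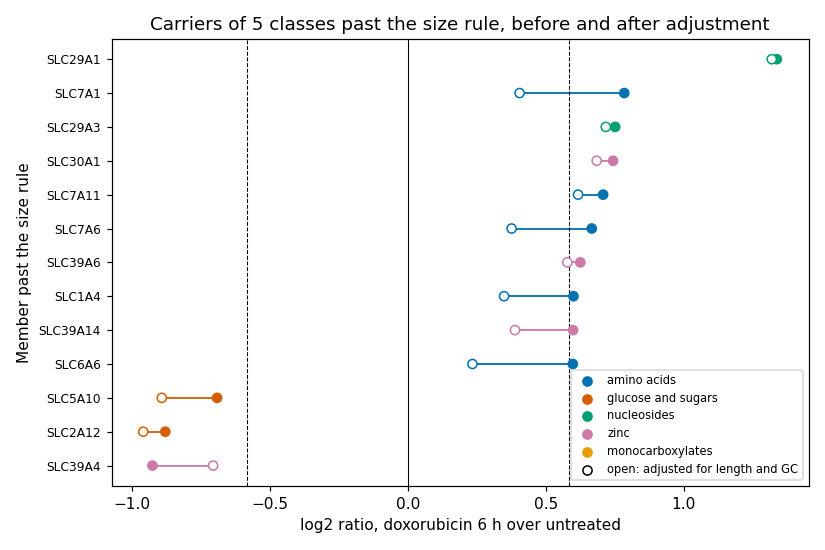
Log2 ratio of the 13 carriers of the 5 substrate classes past the size rule, before (filled) and after (open) adjustment for lengths and GC content; dashed lines mark 1.5-fold. SLC29A1 stays at 1.32 and SLC2A12 at -0.96, while SLC7A1 and SLC6A6 move inside the dashed line at 0.40 and 0.23.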

How the data were processed

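Poly(A)-selected RNA of H9 cells was sequenced from 1 untreated and 1 doxorubicin-treated library. The values deposited by the authors are raw read counts per gene symbol. HISAT2, featureCounts and hg19 are named in the submitters' processing notes. Their versions, the annotation, use of strand and handling of multiply aligned reads were not given in the sources used here. Overlapping or near-identical genes are therefore uncertain and are marked from 10% of exons overlapped or of sampled 50-base stretches shared, which holds for 20 members.

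Counts were scaled with TMM in edgeR 4.0.16 (R 4.3.3). Log2 ratios used an added count of 0.5, and the exact 95% Clopper-Pearson interval of each ratio covers counting error only. A count of 0 allows up to 3 counts, or 0.0911 CPM untreated and 0.0584 CPM treated. With 1 library per group there is no dispersion estimate and no test. The scaling, ratios and intervals were tested on simulated counts that held counting error only. The adjustments for length and GC content were not checked in that way.

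Lengths and GC content were taken from GENCODE release 29 (GRCh38), using each gene's longest RefSeq-paired coding transcript and longest such coding sequence. They matched 11149 of 11244 measured genes (99.2%) and 136 of the 137 members. Log2 ratios were adjusted with a lowess curve of span 0.3 on length, or natural splines of 5 degrees of freedom on all 3 features.

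The members and lists were chosen with earlier results of these data known. Named genes were, in each of 5 substrate classes, up to 6 highest and 6 lowest calls and the 3 highest levels per kilobase, then the 10 highest and 10 lowest calls with at least 200 counts, and 14 carriers always given. Other members named here were chosen after their values were seen, and 1 item is not reported here. Alternatives were DESeq2 1.42.0 size factors, total-count scaling, other count minimums, limits and intervals, and fewer names.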

Additional observations from a re-analysis of the deposited data

How the results depend on the processing

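No paired analysis was possible because each condition has 1 library. Under DESeq2 size factors, a 99% interval and count minimums of 20 or 200, every count of calls stayed within 1.5 times its value, and the members' median log2 ratio lay between 0.14 and 0.29 under every alternative run. No named carrier that was called changed sign under another scaling, added count or adjustment, while the uncalled SLC50A1 and SLC39A10 did under both adjustments.

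Total-count scaling gave 2 sugar carriers, 1 monocarboxylate carrier and 3 of the 45 measured pathway genes outside the carriers higher. After the length adjustment 9 members were higher, with 0 amino acid and 0 zinc carriers, 501 of all genes were lower, and the genes outside the carriers had 0 higher and 0 lower. After the length, coding length and GC adjustment 9 members were higher, not all of them the same genes, with 1 amino acid and 1 zinc carrier. All genes gave 478 higher and 384 lower, and the genes outside the carriers again 0 and 0. A 2-fold limit left 3 members higher (SLC22A20, SLC29A1 and SLC41A1) and 0 lower. By class it left 0 amino acid, 1 nucleoside and 0 zinc carriers higher and 0 sugar and 0 zinc carriers lower, with 128 of all genes higher and 175 lower and 0 and 2 of the genes outside the carriers. A limit only 25% above equal levels gave 54 members higher and 11 lower. By class it gave 9 amino acid, 5 sugar, 8 zinc and 2 monocarboxylate carriers higher and 1 amino acid and 2 zinc carriers lower, with 2294 of all genes higher and 2416 lower and 8 and 10 of the genes outside the carriers. Without the 5 names that hold no carrier 3 members were lower, namely SLC2A12, SLC5A10 and SLC39A4. Without members with overlapped exons 3 were lower too, but these were SLC39A4 and the non-carriers SLC2A4RG and SLC9A3R2. Why the adjustments change calls was not tested. Variation between cultures was not measured, so a ratio near 1.5-fold may lie within it, and members near 100 counts have wide intervals.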
